A study of Mus musculus with 14 samples.

Results

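The regions described here are the tallest short H3K27ac peaks of the embryonic day 14 (E14) mouse retina. They were selected on their pileup, the mean height of stacked ChIP fragments over a peak, which had to be 22 or more, and on a length under 3000 bp. Of 13463 E14 H3K27ac peaks, 13109 were shorter than 3000 bp and 1050 of these passed both limits, or 8.01% of the short peaks. The other 12059 short peaks are the comparison throughout and are called the remaining peaks. The chromatin came from retinas of CD1 mice, which the methods describe as CD-1 animals of either sex, and was precipitated with an antibody to H3K27ac or with its isotype control. The labels call the cells retinal progenitor cells (RPCs), whereas the methods describe whole dissected retinas, so the peaks are those of all retinal cells present at this age. Neither the title nor the characteristics of this sample give a deletion of Lhx2. Reads of 2 replicate libraries were pooled into 1 peak list against 1 isotype control library, so no replicate error exists for any peak, and intervals below cover counting error only. The pooled ChIP held 113543038 tags and the control 9210563 tags after filtering, and all heights are on the scale of the smaller control library.

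Acetylation of lysine 27 of histone H3 is written by the acetyltransferases p300 and CBP and marks nucleosomes beside active promoters and enhancers. At a promoter the start site itself is usually depleted of nucleosomes, and the acetylated nucleosomes flank it. Most mammalian promoters of broadly expressed genes lie in CpG islands, stretches in which C and G are frequent and the CpG dinucleotide has not been lost. Genes that act in every cell, such as those for protein turnover, translation factors and splicing proteins, usually have such promoters, whereas the eye field factors of the retina are controlled by many separate enhancers and often carry long acetylated domains.

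Sequences of mm9, the assembly of the peak list, are shown first for promoters of members, because position and base composition are the properties that the selection did not use. Each of the following stretches ends at the base before the start site of the named gene, contains no annotated exon, and reads 5′ to 3′ along the gene. Capitals mark, on either strand, letters of the 12 short motifs searched below. Those present here are the homeodomain core TAATTA in Cwc22, the ETS motif CCGGAAG in 1600014C10Rik and the GC box GGGCGGG, bound by SP and KLF factors, in Senp6.
Cwc22, chr2:77783996-77784206, minus strand: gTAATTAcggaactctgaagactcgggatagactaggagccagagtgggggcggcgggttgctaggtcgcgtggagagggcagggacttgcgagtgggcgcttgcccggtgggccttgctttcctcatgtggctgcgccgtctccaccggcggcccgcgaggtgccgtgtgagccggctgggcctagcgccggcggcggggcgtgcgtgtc
1600014C10Rik, chr7:38968556-38968805, plus strand: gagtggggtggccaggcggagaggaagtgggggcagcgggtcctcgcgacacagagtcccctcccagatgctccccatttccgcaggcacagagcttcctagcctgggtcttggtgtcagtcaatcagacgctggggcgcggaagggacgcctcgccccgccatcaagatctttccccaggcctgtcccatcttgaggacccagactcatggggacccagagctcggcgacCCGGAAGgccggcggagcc
Senp6, chr9:79914530-79914779, plus strand: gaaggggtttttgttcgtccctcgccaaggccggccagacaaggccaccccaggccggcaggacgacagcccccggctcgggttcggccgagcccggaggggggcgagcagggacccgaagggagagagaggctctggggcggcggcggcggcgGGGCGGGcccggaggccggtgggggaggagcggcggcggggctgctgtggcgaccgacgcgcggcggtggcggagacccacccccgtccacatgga
The Cwc22 and 1600014C10Rik promoters belong to the members with the highest pileup, and Senp6 is a further member of high pileup with a GC box.

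The next sequences are sites in members of high pileup at which the letters AAGATGGCG were found between 250 bp before and 50 bp after the start site. This is the core recognized by YY1, a zinc finger protein that binds near start sites, and it is shown because it was found more often in members than in the remaining peaks. Capitals mark the motif, and 10 bases on each side are included, read along the strand on which the motif lies.
2610005L07Rik, chr8:20020259-20020287, minus strand: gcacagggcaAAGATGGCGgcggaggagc
6820431F20Rik, chr8:19892991-19893019, minus strand: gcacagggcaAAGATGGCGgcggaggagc
Mcmbp, chr7:135884106-135884134, minus strand: gcccatctccAAGATGGCGgccccgggat
B230208H17Rik, chr2:25463958-25463986, minus strand: cgccggcgccAAGATGGCGgcgctgacgg
Hmgxb4, chr8:77517586-77517614, plus strand: ctccttctccAAGATGGCGgccgtcggcg
Hiat1, chr3:116365497-116365525, minus strand: ccgggccctcAAGATGGCGgcgtgcgccc
Eif3e, chr15:43114223-43114251, minus strand: ttcccccggcAAGATGGCGgagtacgacc
Arcn1, chr9:44575882-44575910, plus strand: gcctcttgccAAGATGGCGgccccaagcc
In 7 of these 8 sites the motif lay on the strand of the gene, and the Arcn1 site lay on the opposite strand. The sites of 2610005L07Rik and 6820431F20Rik have identical bases, and both genes lie in copied sequence described below.

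Pileup of the members ran from 22 to 40.2 with a median of 23.6 (quartiles 22.7 to 25), against a median of 14.5 in the remaining peaks. The distribution was dense just above the limit. In all, 908 members were below 26, 33 were at 28 or more and 9 were at 30 or more. These values chose the members and are given as a description. Just inside the limit lay the peaks of C330006D17Rik, Dusp1 and March9, each with a pileup of 22 to the second decimal. Just outside it lay those of Phactr2, Ehmt1 and Mgea5, each with a pileup of 21.99. The longest members were the peaks of Phip (2982 bp), Hnrnpa0 (2972 bp) and Tsc22d2 (2961 bp), and the shortest peaks excluded by length alone were those of E2f3 (3015 bp), Fam60a (3054 bp) and Fscn1 (3067 bp). Members had a median length of 1302 bp (quartiles 903 to 1758) against 969 bp (620 to 1377) in the remaining peaks.

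**Figure D1:**
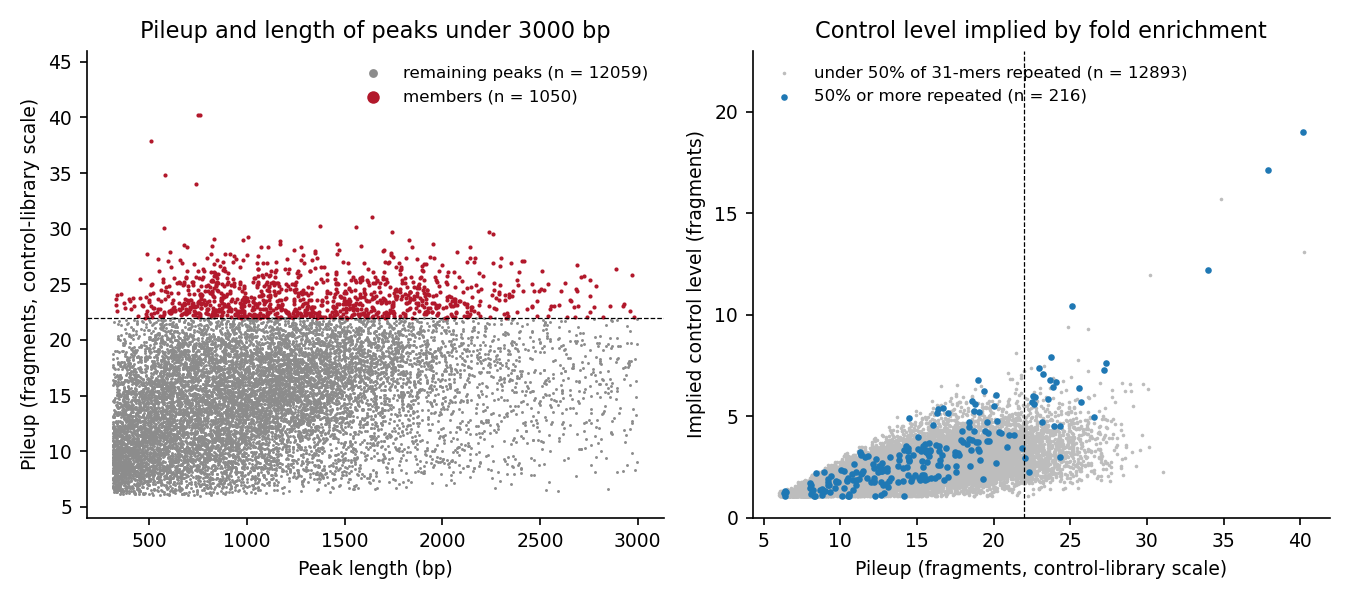
Left, pileup (fragments on the control-library scale) against length (bp) for the 13109 peaks under 3000 bp, with the 1050 members in red above the dashed limit of 22. Right, the control level implied by pileup and fold enrichment against pileup, with peaks of which at least 50% of the 31-base words recur in the genome in blue. The 7 peaks with a control level of 10 or more are members, which the use of pileup in both axes favours.

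Fold enrichment, the ratio of pileup to the local control background, belongs to the same contrast. Its median was 5.63 in members (quartiles 4.79 to 6.69) and 4.36 in the remaining peaks (3.73 to 5.23). Of the members, 960 (91.4%) passed both a 4-fold enrichment and a q of 0.001, as did 63.7% of all peaks under 3000 bp. Because the same ChIP values enter both measures, nothing is read from this difference.

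The highest pileups were not the highest enrichments. Cwc22, which encodes a splicing factor that places the exon junction complex, had the highest pileup of all peaks (40.22 at chr2:77783720-77784477) with a fold enrichment of 2.93. The long non-coding gene 2610005L07Rik followed with 40.18 and a fold enrichment of 2.06, the lowest among all members. The long non-coding gene 6820431F20Rik had a pileup of 37.89, 1600014C10Rik had 34.82 and Tmem181b-ps had 33.99, with fold enrichments of 2.15, 2.14 and 2.65. Dividing pileup plus 1 by fold enrichment and subtracting 1 gives the control level that each of these peaks implies. This implied level was 13.1 for Cwc22, 19.0 for 2610005L07Rik, 17.1 for 6820431F20Rik, 15.7 for 1600014C10Rik and 12.2 for Tmem181b-ps, against a median of 3.40 over all members (quartiles 2.69 to 4.21) and 2.27 over the remaining peaks (1.74 to 2.95). Because the implied level is computed from the pileup, which chose the members, its upper end could not be reached at a low pileup, and nothing is read from the difference between the sets. With Clcn4-2 (11.9) and Gm13307 (10.4), 7 members had an implied control level of 10 or more. The median fold enrichment of these 7 was 2.28.

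Suv420h1, also called Kmt5b, which methylates lysine 20 of histone H4, showed the opposite combination. Its peak at chr19:3767179-3768819 had the highest pileup among members with an implied control level under 5 and little repeated sequence (31.02), a fold enrichment of 9.82 and an implied control level of 2.26. Next in that order came a peak that starts both the pseudogene Gm9870 and Slain2, a regulator of microtubule growth (30.11, fold enrichment 6.96), a peak shared by 1700022K14Rik and N4bp2 (29.67, 6.04), and Gabpb1, the partner of the ETS factor GABPA (29.56, 7.08). The zinc finger gene Zfp592 had 28.62 and 6.60. Members between these in pileup but with an implied control level above 5 were the chloride transporter gene Clcn4-2 (30.20, fold enrichment 2.41), Pink1, a kinase of mitochondrial quality control (30.10, 4.24), Senp6, a SUMO protease (29.72, 4.04), Mcmbp (29.08, 4.63), Sephs1 (28.99, 4.14) and Zbtb44 (28.87, 3.93). Among the 20 members of highest pileup, 11 had an implied control level of 5 or more, and over all members 112 of 1050 had (10.7%, 95% Wilson interval 8.94 to 12.7).

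Part of the members lie in sequence that occurs more than once in mm9. For each peak the share of its 31-base words found at another place in the genome was computed, a measure chosen after the pileups were seen. Most members had none, and 713 of 1050 (67.9%, interval 65 to 70.7) held only single words, against 73.1% of the remaining peaks. In 26 members (2.48%, interval 1.70 to 3.60) at least 50% of the words recurred, against 190 remaining peaks (1.58%, interval 1.37 to 1.81). These 26 had a median implied control level of 6.20 and a median fold enrichment of 3.40, and 19 of them had a fold enrichment under 4. A control level of 5 or more was found in 19 of these 26 (73.1%), but in 12 of the 190 copied remaining peaks (6.32%). The level is computed from the pileup, which chose the members, so nothing is read from that difference. The 26 copied members included 2610005L07Rik (76.4% of words recurring), 6820431F20Rik (71.0%) and Tmem181b-ps (65.8%). On chromosome 4, members of 656, 784 and 776 bp, each 100% repeated with a median of 4 copies per word, lay at chr4:42055355-42056010, chr4:42322518-42323301 and chr4:42695192-42695967, with pileups of 27.18, 24.36 and 25.70. A further set in the same stretch of the chromosome, at chr4:42043250-42044226, chr4:42334338-42335323 and chr4:42683255-42684203, had pileups of 23.20, 23.53 and 23.67, and its bases match RefSeq starts that include Cntfr, the receptor subunit for ciliary neurotrophic factor. The peak at the annotated Cntfr start, chr4:41642126-41643116, was also a member (23.85), and 93.5% of its words recur. Where copies are near identical, a read cannot be placed with certainty, so these values are uncertain. Repetition did not accompany every high control level. 1600014C10Rik, with a level of 15.7, held no recurring word, and Eif4enif1 (9.39) and Eif4e3 (9.29) held none or 0.193%. The part of copied sequence in the pileups was not tested, and the values without these peaks are given in the closing section.

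Members lay at start sites more often than the remaining peaks. The midpoint of 1015 of 1050 members (96.7%, interval 95.4 to 97.6) was within 1000 bp of a GENCODE vM1 start site, against 9204 of 12059 remaining peaks (76.3%, interval 75.6 to 77.1), a difference of 20.3 percentage points (95% Newcombe interval 18.9 to 21.5). A start site lay inside 966 members (92.0%) and inside 67.2% of the remaining peaks. In bands of pileup the share rose from 19.9% at 6 to 8 through 61.5% at 10 to 12 and 89.4% at 14 to 16 to 96.1% at 18 to 20. It was 96.3% at 20 to 22, just below the limit, and 96.4% at 22 to 24, just above it. The limit of 22 therefore does not divide promoters from other regions, and the difference from the remaining peaks comes from the bands below 18. Neighbouring peaks are not independent and there is 1 list, so no test over samples was possible.

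**Figure D2:**
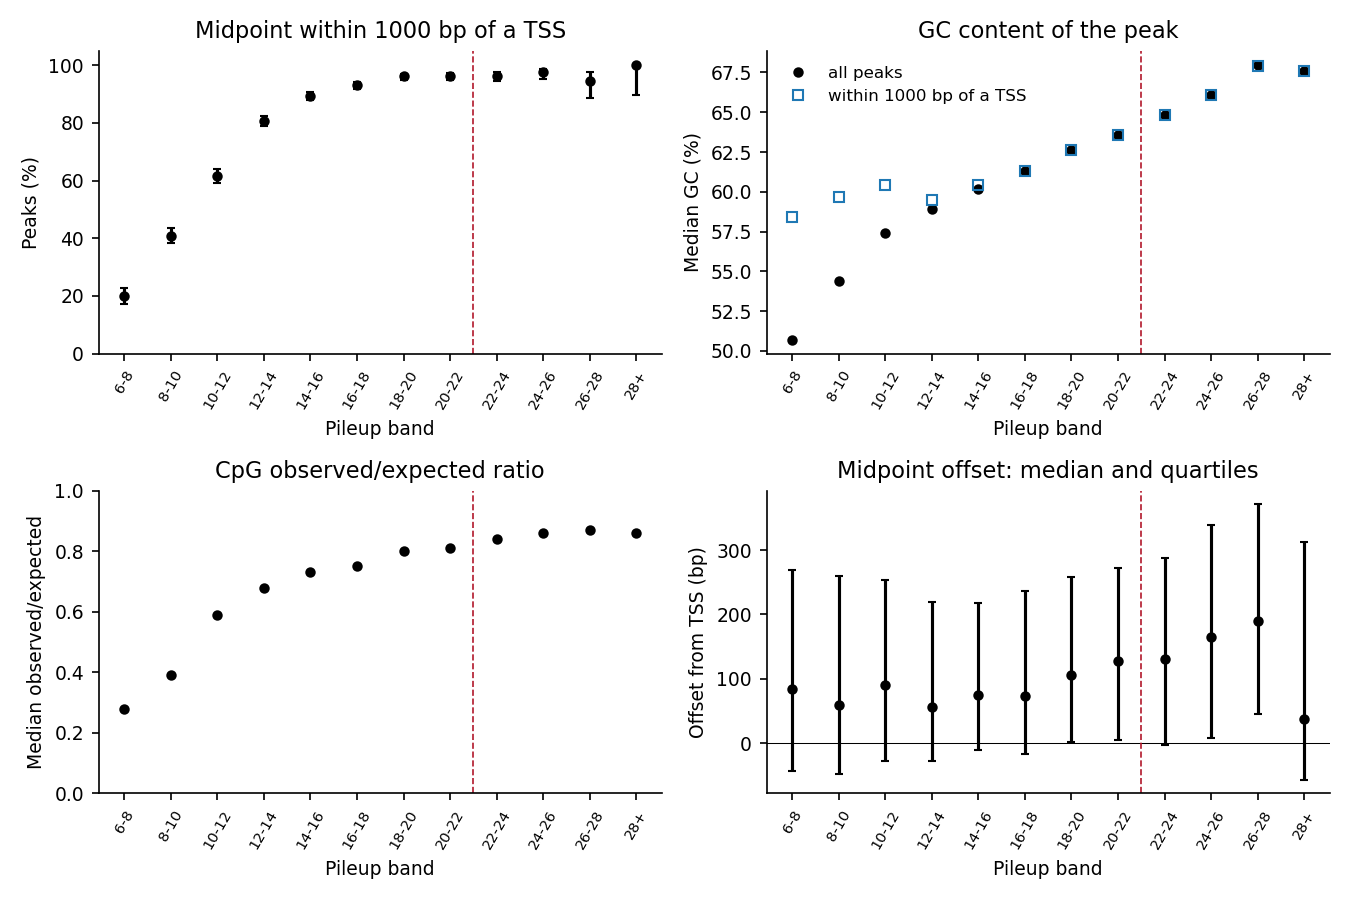
Properties of peaks under 3000 bp in bands of pileup, with the limit of 22 dashed in red. The share within 1000 bp of a TSS (95% Wilson intervals) reaches 96.1% at a pileup of 18 to 20 and stays between 94.5% and 100% above it, while median GC and the CpG observed/expected ratio continue to rise to 68.0% and 0.87 at 26 to 28, and the offset panel shows medians with quartiles.

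Among promoter peaks, those with a midpoint within 1000 bp of a start site, the midpoint of members sat farther downstream. The median signed offset of the 1015 promoter members was 154 bp into the gene (quartiles 0.5 to 312), against 84.0 bp (-14.0 to 243) for the 9204 promoter peaks of the remainder. The limit of 22 does not mark a step in this measure either, since the median was 128 bp at a pileup of 20 to 22 and 130 bp at 22 to 24. It was 165 bp at 24 to 26 and 190 bp at 26 to 28, but 38.0 bp (-57.0 to 312) in the 33 peaks at 28 or more. Members reached 522 bp upstream and 811 bp downstream of the start site at the median, and the remaining promoter peaks 442 and 604 bp. The midpoint was downstream in 75% of members (interval 72.2 to 77.5) and in 69.7% of the remaining promoter peaks (68.7 to 70.6).

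The members' offsets formed a pair of groups. The midpoint lay within 100 bp of the start site in 337 members (33.2%, interval 30.4 to 36.2) against 41.3% of the remaining promoter peaks, and 200 to 450 bp downstream in 364 members (35.9%, interval 33.0 to 38.9) against 25.4% (24.5 to 26.3). The latter difference was 10.4 percentage points (interval 7.41 to 13.6), over windows chosen after the offsets were seen. Centred members were long, 1500 bp at the median, and extended 735 bp upstream and 744 bp downstream. Downstream members were 990 bp long and extended 136 bp upstream and 850 bp downstream. The upstream extent of the downstream members had quartiles of 49.8 to 465 bp. The same split was present in the remaining promoter peaks, where centred peaks were 1110 bp long and reached 547 bp upstream, and downstream peaks were 712 bp long and reached 57.0 bp upstream. A start site of another gene on the opposite strand within 1000 bp upstream was annotated for 17.2% (interval 13.6 to 21.6) of the centred and 8.52% (6.06 to 11.8) of the downstream members, and for 22.3% and 6.67% of the corresponding remaining peaks. Examples of centred members are Gabpb1 (4 bp upstream), Suv420h1 (34 bp upstream), Zfp592 (8 bp downstream) and Kdm1a, a histone demethylase (4 bp downstream). Examples of downstream members are Pink1 (262 bp), Senp6 (432 bp), Eif3e (292 bp) and Psma3, a proteasome subunit (426 bp).

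**Figure D3:**
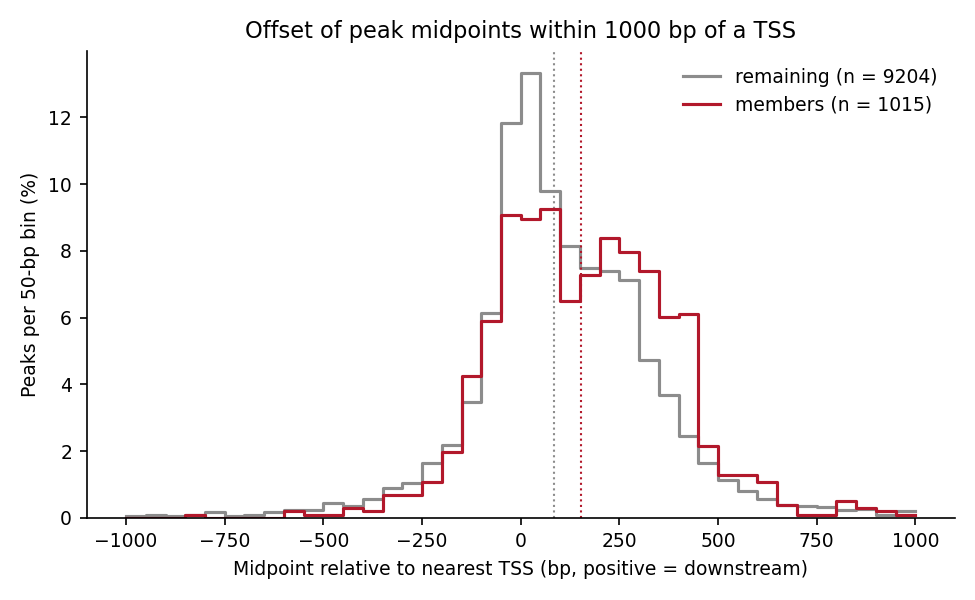
Distribution of the offset of the peak midpoint from the nearest TSS (bp, positive is downstream along the gene) in 50-bp bins, as percent of the 1015 promoter members (red) and of the 9204 remaining promoter peaks (grey), with dotted medians at 154 and 84.0 bp. The members' curve has a second rise between 200 and 450 bp, which holds 35.9% of them against 25.4% of the remaining promoter peaks.

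Peak length is tied to offset, so the comparison was repeated within bands of length. Among promoter peaks of 700 to 1000 bp the median offset was 284 bp in 205 members and 78 bp in 1941 remaining peaks. At 1000 to 1500 bp it was 148 bp against 38.0 bp, at 1500 to 2000 bp 77.0 bp against 49.5 bp, at 2000 to 3000 bp 62.0 bp against 44.0 bp, and at 300 to 700 bp 225 bp against 193 bp. The order was the same in all 5 bands, and the difference was large only between 700 and 1500 bp.

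The nearest gene was protein-coding for 1005 members (95.7%, interval 94.3 to 96.8) against 89.4% of the remaining peaks (88.8 to 89.9). Among promoter peaks alone, compared after seeing the data, the shares were 96.4% and 94.9%, a difference of 1.44 percentage points (interval 0.0332 to 2.53). Long non-coding genes were nearest to 24 members (2.29% against 5.24%), small RNA genes to 11 (1.05% against 3.63%) and pseudogenes to 10 (0.952% against 1.71%, with an interval of the difference from -1.26 to 0.0650 percentage points that includes 0). Of the 37 promoter members assigned to a gene that is not protein-coding, 25 also had a protein-coding start site within 1000 bp of the midpoint. Ep300, the acetyltransferase that writes H3K27ac, Sp3, Srsf1 and Ppp2ca are such cases, each sharing its peak with a non-coding entry. Tug1, a long non-coding RNA studied in the retina, shared a member peak with Morc2a (pileup 22.81), and Dleu2 had one alone (22.14). The 1050 members were nearest to 1044 different genes.

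Of promoter members, 115 of 1015 (11.3%, interval 9.52 to 13.4) had a start site of another gene on the opposite strand within 1000 bp upstream, against 14.4% (13.7 to 15.1) of the remaining promoter peaks. With protein-coding genes alone it was 61 members (6.01%) against 10.1%, a difference of -4.13 percentage points (interval -5.58 to -2.39). Over all peaks, not promoter peaks alone, 2 or more genes started inside 158 of 1050 members (15%). The share was 12.8% of the 12059 remaining peaks (difference 2.28 points, interval 0.153 to 4.64). The remaining peaks are shorter and lie away from start sites more often, so this share cannot be set against the divergent shares. Hnrnpk with Rmi1, and Psma7 with Ss18l1, are divergent protein-coding pairs with a member peak. The nearest protein-coding gene of a promoter member spanned 36838 bp at the median, against 25776 bp in the remaining promoter peaks (binomial 95% intervals of the medians 33443 to 41221 and 25048 to 26766).

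Base composition differed in the same direction at promoters and over all peaks. Median GC content was 65.8% in members (quartiles 62.1 to 69.1) and 59.7% in the remaining peaks (54.7 to 65), and among promoter peaks 65.7% and 61.2%. The CpG observed/expected ratio, which is near 1 where CpGs have been kept, was 0.85 against 0.70, and among promoter peaks 0.85 against 0.74. A ratio of at least 0.6 was found in 1033 members (98.4%, interval 97.4 to 99) and in 67.4% of the remaining peaks. Around the midpoint, in windows of 500 bp, GC was 72.4% against 63.0%. Median GC of promoter peaks rose from 59.5% at a pileup of 12 to 14 to 64.8% at 22 to 24 and 67.9% at 26 to 28. Over all short peaks of the same bands, not promoters alone, the implied control level was 2.26 at 12 to 14, 3.27 at 22 to 24 and 3.87 at 26 to 28. That level is computed from the pileup, so nothing is read from its rise. The part of base composition in the pileup of either library was not tested.

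Of the 12 short motifs searched in the 300 bp around each promoter's start site, YY1 and ZBTB33 were found more often in members than in the remainder with intervals of the difference above 0, as was the GC box. The YY1 letters AAGATGGCG were found in 83 members (8.18%, interval 6.65 to 10) against 3.49% of the remaining promoter peaks, a difference of 4.69 percentage points (3.11 to 6.57). The letters TCTCGCGAG, bound by ZBTB33 (Kaiso), were found in 31 members (3.05%) against 1.30%, a difference of 1.75 points (0.821 to 3.02), and Cul5, Tlk2, Uhrf2 and Smarca5 are examples. In 300 bp around the peak midpoint the ZBTB33 difference was 0.346 points, with an interval that includes 0 (-0.200 to 1.23). The GC box was found in 57.3% against 52.3%. The CCAAT letters, bound by NF-Y, were found in 24.2% of members (21.7 to 27) against 34.9% (33.9 to 35.9), a difference of -10.7 points (-13.4 to -7.78). ETS letters were at 14.9% against 19.4%, the E-box CAGCTG at 11.3% against 15.3%, the AP-1 letters TGANTCA at 2.07% against 3.73%, and the homeodomain core TAATTA at 0.788% against 1.68%, each with an interval of the difference below 0. NRF1 letters CGCATGCGC (3.74% against 3.78%), the cyclic AMP element TGACGTCA (3.65% against 3.53%), the TATA box TATAAA (4.63% against 4.05%) and the heat shock element TTCNNGAA (4.24% against 5.60%) had intervals that include 0. Around the peak midpoint the AP-1 interval included 0 (-1.19 to 0.831), while those of NRF1 (-1.42 to -0.0253) and the TATA box (-1.76 to -0.0470) lay below 0. All matches here are exact letters on either strand, not measured binding.

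**Figure D4:**
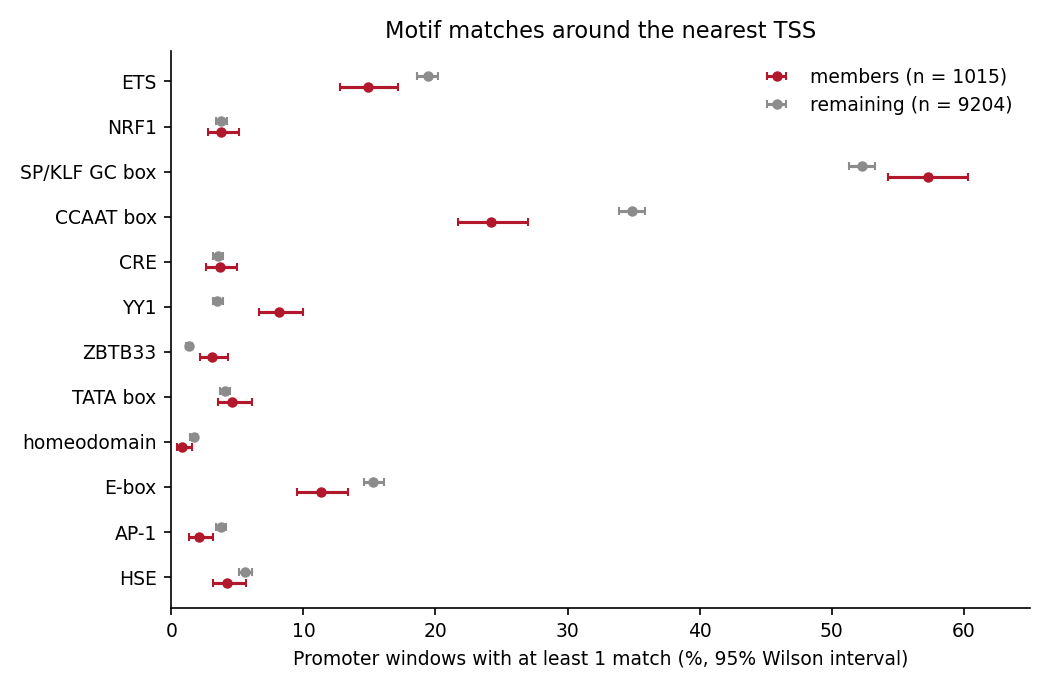
Share of promoter windows (250 bp before to 50 bp after the TSS) with at least 1 match on either strand, for 1015 members (red) and 9204 remaining promoter peaks (grey), with 95% Wilson intervals. YY1 is at 8.18% against 3.49% and the CCAAT box at 24.2% against 34.9%.

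GC-rich sequence holds some of these letters more readily than others. The comparison was repeated among promoter peaks whose GC content over the whole peak was between 62.0 and 69.1%, the quartiles of the promoter members. The GC content of the searched window itself was not matched. This left 507 members and 2890 remaining peaks. YY1 was then at 9.86% against 2.91% (difference 6.96 points, interval 4.56 to 9.91), ZBTB33 at 3.75% against 0.969% and CCAAT at 25% against 30.9% (difference -5.82, interval -9.78 to -1.53). The GC box changed order, at 58.4% against 62.4%, and the ETS (-5.08 to 1.30), homeodomain (-0.902 to 1.01) and AP-1 (-2.72 to 0.0592) differences then had intervals that include 0. The TATA box was at 4.73% against 2.98%, with an interval of the difference above 0 (0.0796 to 4.04). Peaks of 300 to 700 bp and of 700 to 1000 bp carried YY1 letters in 11.7% and 10.7% of members against 2.46% and 3.40%. In peaks of 2000 to 3000 bp it was 2.84% of members, or 4 windows, against 1.85%.

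The position of the YY1 letters was similar in members and the remainder. Of 85 matches in members, 63 (74.1%) lay on the strand of the gene and 38 (44.7%, interval 34.6 to 55.3) began at or after the start site, with a median position of -5.00 (quartiles -61.0 to 9). Of 329 matches in the remaining promoter peaks, 78.7% lay on the strand of the gene and 50.2% began at or after the start site. CCAAT matches lay upstream instead, with a median of -112 in members and -102 in the remainder and with 50.5% and 48.9% on the strand of the gene. Positions count the start site as 1 and the base before it as -1. In the sites printed above, the first base of the motif on the gene's strand was at position 1 in B230208H17Rik, which is the start site. It was at 2 in 6820431F20Rik, 17 in 2610005L07Rik and 42 in Eif3e, a subunit of the translation initiation factor eIF3. It was 15 bp upstream in Hmgxb4, 106 bp in Hiat1 and 124 bp in Mcmbp.

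Genes were then grouped by function. The lists were made from gene names with earlier results of these data known, and the share of a list's short peaks that were members is a description to be read beside the 8.01% of all short peaks. That 8.01% covers promoter and distal peaks together, and the share at autosomal promoters was 10.3%. The lists were not split by position. Peaks per gene differed, with 67 peaks at 59 translation factor genes and 32 at 14 homeobox genes. In 5 lists the interval of the share lay above 8.01%. Of peaks nearest to translation factors, 18 of 66 were members (27.3%, interval 18 to 39.0), with Eif3e (27.24), Eif4b (26.43), Eif4e3 (26.19), Eif4g3 (25.64) and Eif4g1 (25.08) highest in pileup. Eif4e3 binds the mRNA cap and had an implied control level of 9.29, and Eif4g1 and Eif4g3 are scaffolds of the cap-binding complex. Of peaks at genes of the ubiquitin system, 41 of 160 were members (25.6%, interval 19.5 to 32.9). Among them were the cullin scaffolds Cul5 (28.34) and Cul1 (27.87), the conjugating enzyme Ube2d2 (27.61) and the substrate adaptor Fbxw11 (26.09). Chaperones had 13 members of 66 (19.7%, interval 11.9 to 30.8), among them Dnajc11 (25.04), Hsp90aa1 (23.76) and Dnaja1 (23.29), although at a pileup limit of 25 only 1 of 66 remained against 268 of all 13109 short peaks. Splicing and RNA-binding genes had 25 of 131 (19.1%, interval 13.3 to 26.7), with Hnrnpk (26.76), Hnrnph3 (26.74), Rbm15b (26.57), Rbm33 (26.35) and Hnrnpu (26.18) highest, and chromatin regulators had 19 of 98 (19.4%, interval 12.8 to 28.3). Of the latter, Kdm3b (27.16) and Kdm1a (26.95) remove histone methylation, Smarce1 (26.93) and Brd7 (25.73) belong to SWI/SNF complexes, and Smarca5 (25.67) is the ISWI motor.

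**Figure D5:**
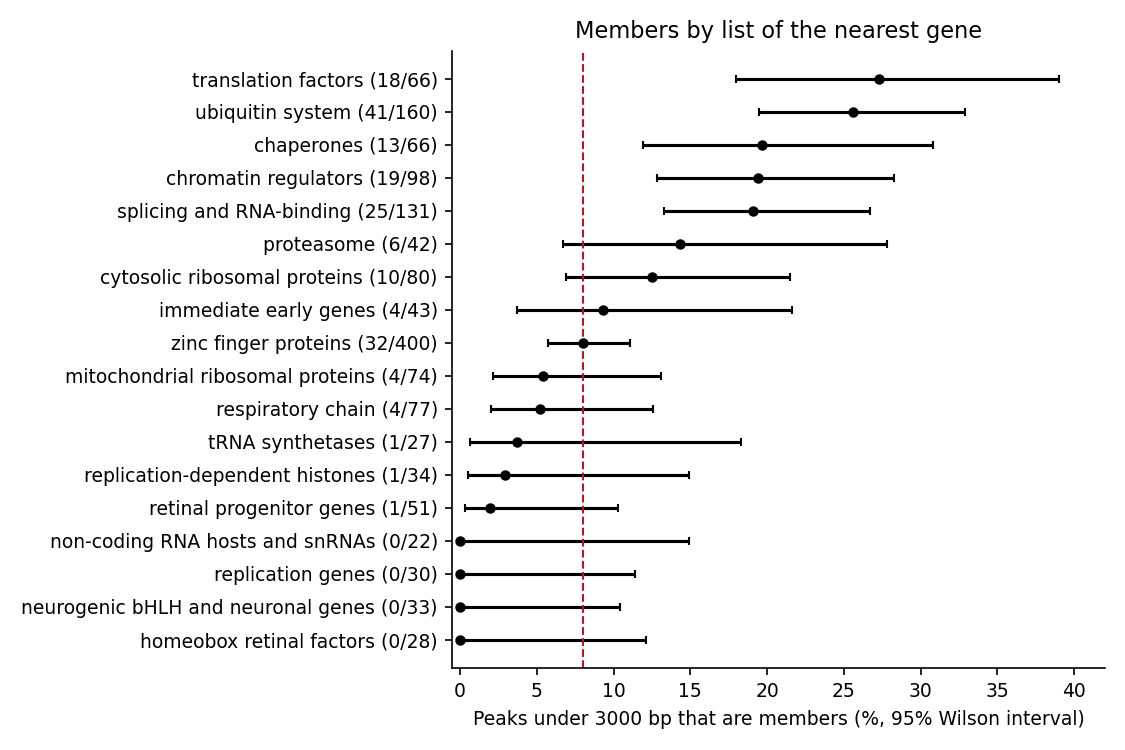
Share of peaks under 3000 bp that are members, by list of the nearest gene, for lists with at least 20 such peaks, with 95% Wilson intervals and the counts beside each name. The dashed line is the 8.01% of all short peaks, and the intervals of 5 lists, from translation factors at 27.3% to splicing and RNA-binding genes at 19.1%, lie above it.

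In other lists of genes used by every cell the share was nearer to that of all short peaks, and the difference between lists was not tested. Cytosolic ribosomal proteins had 10 members of 80 (12.5%, interval 6.93 to 21.5), the highest being Rpl5 (24.87), Rpl32 (24.72) and Rpl11 (24), although the median pileup of all 80 was 19.3 against 15 for all short peaks. The count for this list depended on the limit. At a pileup limit of 20 it was 29 of 80, against 2130 of all 13109 short peaks, and at 25 it was 0, against 268. Proteasome genes had 6 of 42 (14.3%, interval 6.72 to 27.8), with Psmd11 (25.19) and Psma3 (25.12) highest. Mitochondrial ribosomal proteins had 4 of 74 (Mrpl48, Mrps35, Mrps24 and Mrpl3) and the respiratory chain 4 of 77 (Atp5j, Cox7c, Uqcrfs1 and Ndufab1). tRNA synthetases had 1 of 27 (Yars2, 22.06), zinc finger proteins 32 of 400 (8%), replication-dependent histones 1 of 34 (Hist1h2al, 23.75, of whose words 85.5% recur), replication genes 0 of 30 with a highest pileup of 19.6, and non-coding RNA hosts and snRNAs 0 of 22. The intervals of all these lists include 8.01%. Atp5j shares its member with Gabpa, so both subunits of the ETS factor GABP had a member at their start.

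Few members were nearest to genes of the retinal lists, although the interval of each retinal list includes 8.01%. These lists were made from gene names and are not complete. Smo, a Hedgehog pathway gene like the listed Gli1, Gli2 and Gli3, is in none of them and had a member (28.33, fold enrichment 8.22). Of peaks under 3000 bp nearest to homeobox factors of the eye field and retinal cell fates, 0 of 28 were members, which allows a share of up to 10.7% when the limit is set at 3 counts, as for every count of 0 here, and the highest pileups among them were 21.5 at Pbx3 and 19.2 at Lhx2. Of 33 short peaks at neurogenic and neuronal genes 0 were members, which allows up to 9.09% (highest 19.7, at Sox12), and of 51 at retinal progenitor genes 1 was, the 579-bp peak of Notch2 with a pileup of 23.66 and an implied control level of 6.38. Peaks of any height were nearest to 37 of 39 progenitor genes, to 14 of 28 homeobox factors and to 23 of 34 neurogenic and neuronal genes, and 16 of the 67 peaks at progenitor genes were 3000 bp or longer, against 354 of 13463 in all. The length limit thus removed 24 peaks of these lists, but none of the long peaks at them reached 22. Sox2 had 1 peak of 5974 bp with a pileup of 15.5, Pax6 a peak of 32865 bp with 14.6, and Sox11 a peak of 5750 bp with 20.2. The list of genes induced within minutes by growth factors or by tissue dissociation had 4 members of 43 short peaks. This share of 9.30% (interval 3.68 to 21.6) is near the 8.01% of all short peaks. The 4 were Ier5 (25.48), Btg1 (24.32), Mcl1 (22.81) and Dusp1 (22), while Fos reached 14.5 and Egr1 18.2. Markers of other cell types had 0 members, but their lists held at most 3 short peaks each. At 3 counts the limit is 100% or more for every such list with a peak, so nothing is read from these counts of 0. Of 10 genes each, the retinal pigment epithelium list had 1 gene with a peak, the endothelial list 2 and the erythroid list 0, and of 11 genes each, the microglia and lens lists had 1. The highest pileup over these lists was 13.5, in the lens list.

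The members were spread over all autosomes and missing from the X chromosome. On single autosomes 6.84% (chromosome 12) to 9.50% (chromosome 14) of short peaks were members. On chromosome X it was 0 of 376, which allows a share of up to 0.798% at 3 counts (95% Wilson limit 1.01%), against 1050 of 12730 on the autosomes (8.25%, interval 7.78 to 8.74). Chromosome Y had 3 short peaks. Peaks on X were promoters in 90.7% of cases, against 77.6% on the autosomes, and GC content at promoters was 60.8% against 61.7%. Median pileup at promoter peaks was 11.6 on X and 16.4 on the autosomes, and the implied control level was lower as well, 1.61 against 2.54, while fold enrichment was 4.62 against 4.71. High pileups on X were at Ddx3x (21.62), an RNA helicase, Hmgb3 (19.88), the histone demethylase Kdm6a (19.72) and Zfx (19.36). The fold enrichment was 7.04 for Ddx3x and 9.96 for Hmgb3. The embryos were of either sex, and the number of X chromosomes in a cell and the acetylation of each cannot be told apart in this list.

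Only 23 members (2.19%, interval 1.46 to 3.27) had a midpoint more than 5000 bp from any annotated start site, against 2280 remaining peaks (18.9%), and 12 lay between 1000 and 5000 bp. These 23 resembled promoters in composition. Their median GC content was 67.6% and their CpG ratio 0.76, against 53.0% and 0.33 in the 2280 distal peaks of the remainder, and all 23 had a ratio of at least 0.6, against 426 of 2280. Start sites of RefSeq, which was built on a later assembly, were therefore looked for by sequence, as an exact match of the 50 bases around each start. A match lay in 9 of the 23 (39.1%, interval 22.2 to 59.2) and in 163 of the 2280 (7.15%, interval 6.16 to 8.28). Of the 9, 2 lay in copied sequence on chromosome 14. The other 7 matched Cplx2, which encodes a complexin of synaptic vesicle release, Cep85l, Rnf180, Gatad2b, Rnf4, BC034090 and Gm20324. The peak matched to Cep85l was nearest to Gm9766 in the annotation, at 30296 bp, and the one matched to Gatad2b, a subunit of the NuRD complex, was nearest to Dennd4b, at 15266 bp. A further 4 distal members lay in copied sequence, among them the one farthest from any start site, at chr12:20201987-20203366, 219123 bp from Gm10479. The remaining distal members included peaks upstream of Zfhx3 (10231 bp), Arhgap5 (11947 bp), Mical3 (28405 bp) and the microRNA gene Mirlet7a-1 (7922 bp).

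Of distal members outside copied sequence, those with the highest pileup were chr6:83405496-83407432 and the Cplx2 peak chr13:54397680-54399576. They are shown because the annotation gives no start site there. The first stretch covers the 200 bases at the midpoint, on the plus strand, and the second the 200 bases that precede the RefSeq start of Cplx2. Capitals mark letters of the searched motifs, which are the GC box in the first and the E-box CAGCTG in the second.
Member nearest to B230319C09Rik, chr6:83406364-83406563: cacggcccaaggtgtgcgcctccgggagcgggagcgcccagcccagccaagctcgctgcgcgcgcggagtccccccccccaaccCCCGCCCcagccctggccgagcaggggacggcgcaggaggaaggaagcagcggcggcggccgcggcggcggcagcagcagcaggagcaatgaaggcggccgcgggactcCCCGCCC
Cplx2, chr13:54397725-54397924: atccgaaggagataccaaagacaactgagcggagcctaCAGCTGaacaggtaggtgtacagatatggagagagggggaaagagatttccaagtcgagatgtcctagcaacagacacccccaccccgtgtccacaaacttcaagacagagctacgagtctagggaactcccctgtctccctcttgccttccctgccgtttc
The first had a pileup of 27.48 with a fold enrichment of 9.36, a GC content of 69.2% and no recurring word, 14658 bp from the long non-coding gene B230319C09Rik. The Cplx2 peak had 26.62 with a fold enrichment of 6.41, 74085 bp from the annotated Cplx2 start.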

How the data were processed

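H3K27ac was measured by ChIP-seq at E14 in 2 replicate libraries beside 1 isotype control. Per the methods and the submitters' processing notes, the authors used Bowtie2 for alignment against mm9, retained reads that mapped uniquely and called broad regions with MACS2 (version 2.1.0.20140616, broad cutoff 0.1, q cutoff 0.05, 1 tag per position). The authors deposited pileup as a mean signal over each region after scaling the ChIP to the control, fold enrichment as the ratio to the local control background, and p and q as −log10 values. The other samples were not analysed here.

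Midpoints were assigned to the nearest transcript start of GENCODE vM1, ties going to protein-coding genes. All peaks lay within the mm9 chromosomes. Sequence was read from mm9. RefSeq starts (GRCm38.p6) were matched by sequence only, and no position was converted. The control level was derived from pileup and fold enrichment, which MACS2 averages over a region separately, and is approximate. Shares have 95% Wilson and differences Newcombe intervals, and the limit given for a count of 0 is 3 counts. The scripts were tested on simulated data (Python 3.11.15, numpy 2.4.6, pandas 2.3.3, scipy 1.17.1, numba 0.67.0, matplotlib 3.10.9).

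The members, gene lists and motifs were chosen with earlier results of these data known. Genes named were the 20 members of highest pileup, up to 5 per list, the 10 farthest from a start site and those at the limits. The sequences printed are from 3 of the highest promoters and 2 distal members, with none from chromosome 18. Others, such as motif sites, copied peaks, the top peaks of chromosome X, and examples of centred, shared, divergent or retinal peaks, were chosen after their values were seen. Alternatives covered the pileup and length limits, the definition of a promoter, the annotation, the sequence window and the removal of copied or high-control peaks. Some items are not reported here.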

Additional observations from a re-analysis of the deposited data

How the results depend on the processing

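The number of members depended on the pileup limit, with 2130 at a limit of 20 and 268 at 25, and peaks in the lists likewise, with 321 and 44 against 179. The share within 1000 bp of a start site was 95.3% with protein-coding transcripts alone, and 91.1%, 97.8% and 92.0% when the midpoint had to lie within 500 bp, within 5000 bp or any base of the peak on a start site. The median offset over all members was 150 bp, and 184 bp at a pileup limit of 25 and 194 bp with protein-coding transcripts alone. Divergent promoters were 6.01% with protein-coding genes alone. In 500 bp around the midpoint GC was 72.4% and the CpG ratio 0.92. In 300 bp around the midpoint ETS letters were found in 8.97%, CCAAT in 11.6% and YY1 in 4.14% of promoter members, and the ZBTB33 difference had an interval that includes 0 (-0.200 to 1.23). In these settings for start sites, offset, divergence, base composition and the ETS, CCAAT and YY1 letters, members differed from the remaining peaks in the same direction as before. Directions turned for 4 of the less frequent or GC-dependent comparisons. Around the midpoint the cyclic AMP element was at 1.08% in members against 1.87% and the TATA box at 1.58% against 2.64%. Within the GC quartiles of the members, NRF1 was at 3.75% against 3.25% and the GC box at 58.4% against 62.4%. Leaving out peaks with at least 50% recurring words, or with an implied control level of 5 or more, both chosen after seeing the data, gave promoter shares of 97.6% and 97.2%, median offsets of 150 and 146 bp and GC of 65.7% and 65.6%. It turned no direction in these, in gene class, in divergence or in the CpG ratio, and motif shares were not recomputed. The control limit took the members in lists from 179 to 167, Hist1h2al and Notch2 among the losses. The shallow control and the single pooled list limit the precision of every peak's height.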

Other observations

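A further 25 peaks with a pileup of at least 22 were excluded only by a length of 3000 bp or more. Among them were peaks at the chromatin and transcription regulators Nsd1 (pileup 28.01), Arid1b (26.99), Brd2 (26.31), Yy1 itself (25.33), Arid1a (24.07) and Chd7 (22.56). Others lay at the immediate early gene Jun (23.59) and at the related Jund (23.61). The 25 peaks had a median length of 3570 bp, a median fold enrichment of 6.01 and a median GC content of 62.9%. The implied control level of these long peaks was 3.35 at the median and 4.15 at most, so 0 of 25 had a level of 5 or more, which allows a share of up to 12%. The median offset was 74.0 bp, with 1700 bp upstream and 1883 bp downstream of the start site, so that these peaks flanked the start on both sides.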
